A study of Mus musculus with 6 samples.

Results

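The genes described are 31 markers of oligodendrocyte precursors and of newly formed oligodendrocytes, taken as a list of symbols and matched to the gene names printed in the array files. They were read by 74 of 56605 non-control probes, and 63 of these 74 were bright enough to be tested, among 38463 tested probes in all. Each of the 31 genes kept at least 1 tested probe, and the brightest stood for the gene among 24932 tested genes. That probe was well above background on all 6 arrays for all 31 genes, among them the defining markers Pdgfra, Cspg4, Gpr17 and Enpp6.

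Oligodendrocyte precursors persist in the adult brain, divide in response to platelet-derived growth factor, and give rise to new myelinating cells. On the way they pass through a short committed stage, in which precursor genes are switched off and genes of newly formed, premyelinating cells are switched on before the bulk of myelin protein is made. Few of these markers belong to 1 cell type. Neurons also express Dscam, Fyn, Marcks, Sox11 and Tnr, astrocytes express Ednrb, Itpr2 and Ptprz1, fibroblasts express Pdgfra, and pericytes express Cspg4.

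The tissue was brainstem with cerebellum, taken at 16 weeks of age, and each sample's RNA went onto 1 single-colour Agilent array. There were 3 samples with the genotype label MSA Transgenic and 3 labelled wild type, and both genotypes share 1 mixed background of C57BL/6, 129 and C3H. The labels name neither the transgene nor the promoter that drives it, and they do not spell out MSA. They also do not say that each sample is a separate animal, so the p-values cover the variation of these 6 samples, which may be partly technical. Levels are given as log2 of the background-subtracted signal relative to the 75th percentile of the same array, so 0 is the 75th percentile, and a difference is MSA transgenic minus wild type.

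Slide 1 carried wild-type replicate 1 by itself, and slide 2 carried the remaining 5 samples. Its 75th percentile was 405.7 intensity units, against 535.0 to 609.2 on the other arrays. Across the tested genes, Pearson's r was 0.974 to 0.978 between it and each of the others, and 0.991 to 0.996 for pairs within slide 2. It held the highest level of 11 members and the lowest of 7. Values within slide 2 (3 transgenic and 2 wild-type arrays) are therefore given for the members whose difference they move by over 1.5 times or to the other side of 0.

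The series compares the transgenic with the wild-type brain, and for this list the comparison asks whether precursor or premyelinating transcripts changed. None of the 31 genes passed an adjusted p of 0.05 in limma with Benjamini-Hochberg adjustment over all genes, a threshold that 0.0441% of all tested genes passed (0.0361% higher and 0.00802% lower). The smallest adjusted p among the members was 0.617, for Bcas1. At an unadjusted p under 0.05 there were 2 of 31 members, Bcas1 with a positive and C1ql1 with a negative difference, which is 6.45% against 5.86% of all genes (3.15% higher and 2.71% lower). Positive differences were found for 13 members (41.9%, against 49.9% of all genes) and negative ones for 18. The median difference was -0.01, against -0.000466 over all tested genes. In this bulk tissue, fewer cells of a type and less RNA per cell cannot be told apart.

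The intervals show how large a change these arrays leave room for on the probe that stands for each gene. They do not bound the other probes, whose intervals can reach further, as for Matn4 (0.25 to 1.17) and Ptprz1 (-0.87 to -0.07). For Sox5 and Sox11 the probe itself has limits, given below. The 95% confidence interval of the log2 difference lay within 0.5 of 0 for 21 of 31 members and within 1 of 0 for 30 of 31, the exception being C1ql1. The SE of a member's difference ran from 0.08 to 0.21, with a median of 0.12. For 26 of 31 members (83.9%) the difference itself was under 0.25 in size, as it was for 74.1% of all genes.

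**Figure D1:**
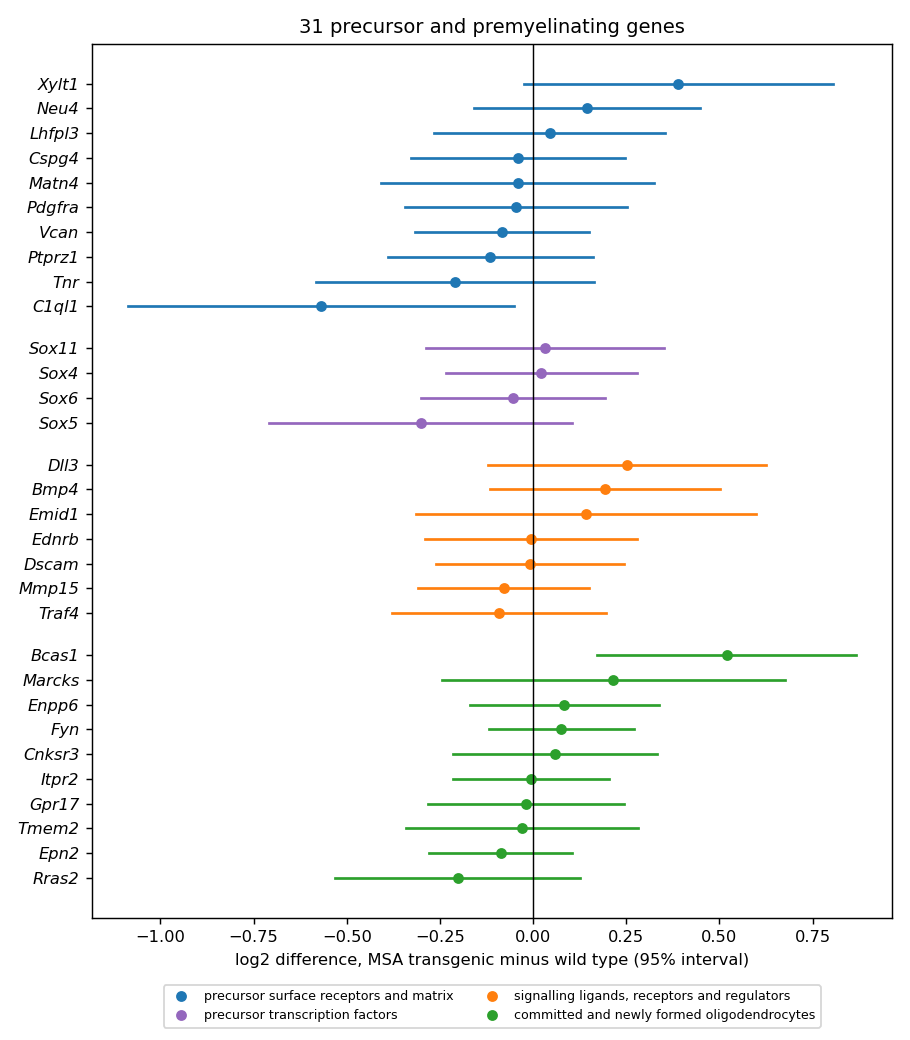
Log2 difference of each of the 31 genes, MSA transgenic minus wild type (points), with its 95% confidence interval from limma (lines), n = 3 samples per genotype, coloured by role. The interval of Bcas1 lies above 0, that of C1ql1 lies below 0, and the others include 0.

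Receptors and matrix proteins of the precursor surface come first, with the receptor by which precursors answer platelet-derived growth factor. Pdgfra had log2 levels of 0.30, 0.27 and 0.53 in transgenic samples, against 0.59, 0.36 and 0.30 in wild-type samples. The groups overlap throughout, with a difference of -0.05 ± 0.12 (SE, n = 3 per genotype, as for all differences below) and a 95% interval of -0.34 to 0.25. Cspg4, which encodes the NG2 proteoglycan of the precursor membrane, had -1.24, -1.31 and -0.98 in transgenic samples, against -1.08, -1.23 and -1.10 in wild-type samples. The transgenic values enclose the wild-type ones, and the difference was -0.04 ± 0.12 (interval -0.33 to 0.25).

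The matrix genes gave differences of similar size. Vcan, the chondroitin sulphate proteoglycan versican, differed by -0.08 ± 0.09 and Ptprz1, a receptor tyrosine phosphatase that carries chondroitin sulphate chains, by -0.12 ± 0.11. Tnr, the matrix glycoprotein tenascin-R, differed by -0.21 ± 0.15. Its 3 transgenic levels of -1.53, -1.59 and -1.57 lay close to -1.46 and -1.56 of wild-type replicates 2 and 3, and only wild-type replicate 1, at -1.04, stood apart. Within slide 2 the difference of Tnr was -0.05. Lhfpl3, a membrane protein of the tetraspan family, differed by 0.04 ± 0.13, Neu4, a sialidase, by 0.14 ± 0.12 and the matrilin gene Matn4 by -0.04 ± 0.15. A second Neu4 probe, well above background on 3 transgenic and 2 wild-type arrays, gave 0.38 ± 0.25, or -0.07 with normexp. Within slide 2 the differences were 0.04 for Pdgfra, -0.01 for Cspg4, -0.06 for Ptprz1, 0.002 for Lhfpl3, 0.08 for Neu4 and -0.14 for Matn4.

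The largest differences of this group belonged to C1ql1 and Xylt1, in opposite directions. C1ql1 encodes a secreted C1q-like protein, which in the hindbrain is also made by the inferior olive neurons whose climbing fibres reach Purkinje cells. Its levels were -2.89, -2.40 and -2.93 in transgenic samples, against -1.84, -2.27 and -2.40 in wild-type samples. Transgenic replicate 2 and wild-type replicate 3 met at the same level, so the groups just touch. The difference was -0.57 ± 0.21 (interval -1.09 to -0.05, unadjusted p = 0.0360, limma adjusted p = 0.817), or -0.41 within slide 2 and -0.40 with normexp background correction. Wild-type replicate 1 held the highest level, at -1.84. The unadjusted limma p was 0.0789 within slide 2 and 0.0348 with normexp. C1ql1 has 1 probe on the array, at chr11:102801107-102801166 (mm9, minus strand), shown by the first 30 of its 60 bases because the value rests on it alone.
C1ql1: gtgatcctgcatctggacgcaggggatgag

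Xylt1 encodes the xylosyltransferase that starts glycosaminoglycan chains on proteoglycan cores such as those of Cspg4 and Vcan. The levels of Xylt1 were -3.14, -2.97 and -2.69 in transgenic samples, against -3.57, -3.12 and -3.28 in wild-type samples, where replicate 1 was the lowest. Transgenic replicate 1 lay just under wild-type replicate 2, so the groups overlap, and the difference was 0.39 ± 0.17 (unadjusted p = 0.0609, limma adjusted p = 0.817). It was 0.27 within slide 2 and 0.08 with normexp. A second Xylt1 probe gave 0.32 ± 0.21, or 0.15 within slide 2 and -0.09 with normexp.

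**Figure D2:**
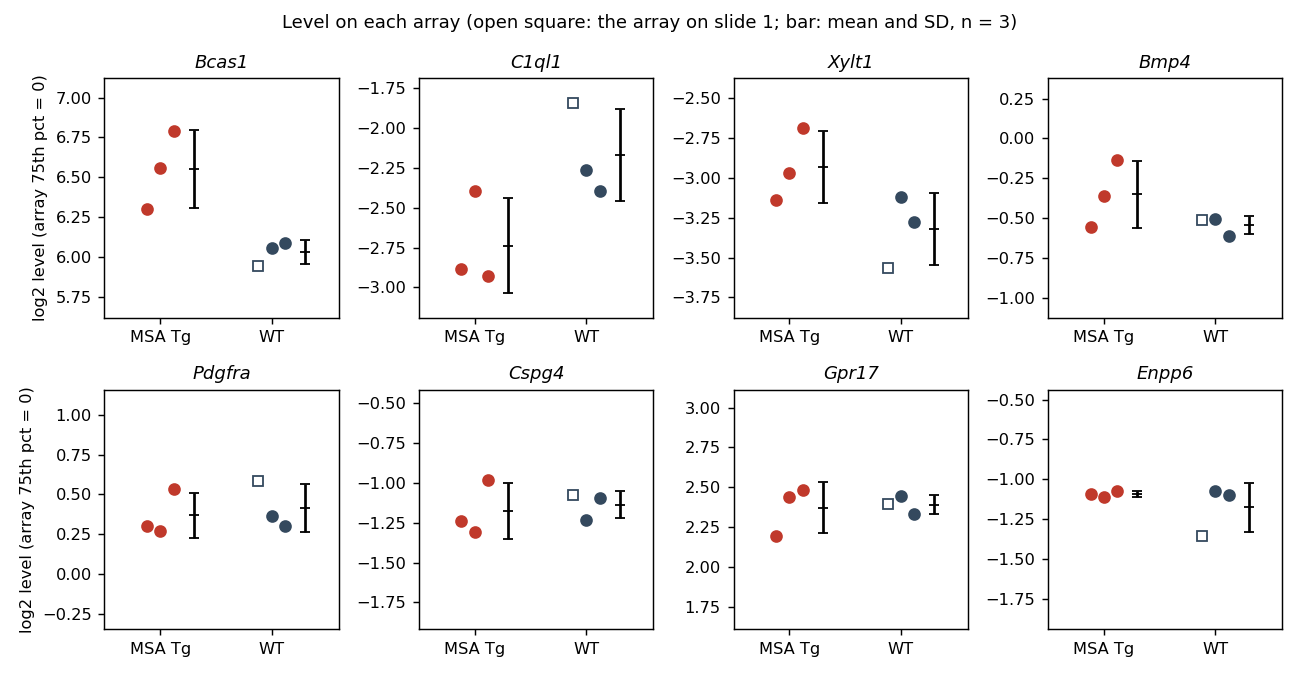
Log2 level of 8 members on each array, relative to the array's 75th percentile, for the 3 MSA transgenic (red) and 3 wild-type (blue) samples. The bars are the mean and SD (n = 3), the open square is wild-type replicate 1 on slide 1, and all panels span the same range. The transgenic points lie above all wild-type points for Bcas1; the groups overlap in the other 7 panels.

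The 4 transcription factors of the list are of the SOX family. Sox5 and Sox6 hold precursors back from maturing, and Sox4 and Sox11 are SOXC factors shared with immature neurons. Sox6 had log2 levels of 0.35, 0.23 and 0.31 in transgenic samples, against 0.51, 0.30 and 0.25 in wild-type samples, and differed by -0.06 ± 0.10, or 0.02 within slide 2. Sox4 differed by 0.02 ± 0.10. The groups overlap for both genes.

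Sox5 and Sox11 need a look at their probes, because the brightest one stands for the gene. For Sox5 it gave -0.30 ± 0.17, with levels of 6.34, 6.48 and 5.89 in transgenic samples, against 6.56, 6.49 and 6.56 in wild-type samples. These groups do not overlap, but the probe is a low-complexity repeat. It holds 16 GGA triplets in 60 bases, all of its bases are G or A (100%), and its annotated match in mm9 spans 27 bases. Only 4 of 56605 probes (0.00707%) hold at least as many GGA triplets, and no other member probe does. The 2 other tested Sox5 probes gave 0.11 ± 0.13 and 0.43 ± 0.26, and the fainter of them was well above background on 3 transgenic and 1 wild-type arrays. That fainter probe passed the filter only through the transgenic arrays, where it read higher. Within slide 2 these 2 probes gave 0.01 and 0.22, and with normexp they gave 0.003 and -0.13. Without the repeat probe, a choice made after seeing the data, the difference of Sox5 was therefore 0.11. The first 30 bases of the 3 probes follow, with GGA triplets of the repeat probe in capitals.
Sox5 at chr6:143776945-143776971 (mm9, minus strand): GGAGGAGGAGGAagaGGAGGAGGAGGAaga
Sox5 at chr6:143777579-143777638 (mm9, minus strand): gtttgcaaggaagaaatacgaaagctactt
Sox5 at chr6:143781520-143781579 (mm9, minus strand): ttacaagcaaaaacgtcatcaagaagaaga

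For Sox11 the brightest probe gave 0.03 ± 0.13, but its annotated strand is opposite to that of the gene. The 2 probes on the gene's own strand gave 0.29 ± 0.13 (unadjusted p = 0.0684) and 0.12 ± 0.20. Within slide 2 the brightest gave 0.09 and these 2 gave 0.27 and -0.05. With normexp these 2 gave 0.17 and -0.004. The first probe on the gene's own strand had levels of -1.81, -1.54 and -1.56 in transgenic samples, against -1.95, -1.75 and -2.07 in wild-type samples, which overlap in 1 value of each group. Gene strands could be compared for 25 members and 61 probes, and 3 probes lay opposite to their gene, of Sox11, Cnksr3 and Dscam. The probe strands are those of mm9 and the gene strands those of RefSeq on GRCm38.p6, and the Dscam probe was too dim to test. The Cnksr3 probe is that gene's only one, and it is annotated to the gene's own RefSeq transcript. Whether its strand differs only because the assemblies orient this stretch differently was not tested. The Sox11 probes are shown by their first 30 bases, with none in capitals.
Sox11, opposite strand, at chr12:28023292-28023351 (mm9, plus strand): tggtcttcacaatgcattcgtcgaaaccgc
Sox11 at chr12:28020087-28020146 (mm9, minus strand): gcaggagtttttcacagaggaatacatttg
Sox11 at chr12:28019541-28019600 (mm9, minus strand): aaccattctgtattgaaactcttgctataa

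Signalling genes of the lineage differed by -0.09 to 0.25. Bmp4, a ligand that holds precursors from maturing and turns them towards astrocytes in culture, had log2 levels of -0.55, -0.36 and -0.14 in transgenic samples, against -0.51, -0.51 and -0.61 in wild-type samples. Transgenic replicates 2 and 3 lay above every wild-type sample and replicate 1 did not, with a difference of 0.19 ± 0.13. The second Bmp4 probe gave 0.17 ± 0.17. With normexp the first probe gave 0.17 and the second 0.02. Dll3, an inhibitory Notch ligand, differed by 0.25 ± 0.15. It was lowest in wild-type replicate 1, and its difference was 0.11 within slide 2 and 0.10 with normexp. Emid1, which encodes a secreted protein with an EMI domain, differed by 0.14 ± 0.19, and by -0.03 without wild-type replicate 3, its lowest sample at 0.84.

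The other members of this group lay closer to 0. Ednrb, a receptor for endothelins, differed by -0.01 ± 0.12 and Dscam, a cell adhesion molecule, by -0.01 ± 0.10. Mmp15, a membrane-type matrix metalloproteinase, differed by -0.08 ± 0.09 and Traf4, an adaptor of receptor signalling, by -0.09 ± 0.12. Within slide 2 the differences were -0.18 for Traf4, 0.28 for Emid1, -0.05 for Mmp15, -0.01 for Ednrb and 0.08 for Dscam.

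Among genes of committed and newly formed oligodendrocytes, Bcas1 stood at the top. BCAS1 protein marks oligodendrocytes that are starting to myelinate, and the transcript continues in mature cells. Its log2 levels were 6.30, 6.56 and 6.79 in transgenic samples, against 5.95, 6.06 and 6.09 in wild-type samples. Every transgenic sample lay above every wild-type sample, and the 3 transgenic samples spread more widely (SD 0.24) than the wild-type ones (SD 0.08). The difference was 0.52 ± 0.14, or 1.43-fold (95% interval 1.13-fold to 1.82-fold, unadjusted p = 0.0109), and it missed the threshold over all genes (limma adjusted p = 0.617).

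A second probe of Bcas1, in the same transcript, gave 0.69 ± 0.17 (unadjusted p = 0.00633, limma adjusted p = 0.564 over all probes), again with transgenic levels of 0.95, 1.27 and 1.56 above wild-type levels of 0.45, 0.61 and 0.66. Both probes ordered the 6 samples alike. Within slide 2 the first probe gave 0.48 and the second 0.63, and with normexp they gave 0.55 and 0.68. Groups that do not overlap were found for 3 of 31 members (9.68%), Bcas1 above and Epn2 and Sox5 below, against 14.9% of all genes (7.39% higher and 7.5% lower). The 2 Bcas1 probes are shown by their first 30 bases because they read separate stretches of the transcript.
Bcas1 at chr2:170172708-170172767 (mm9, minus strand): gcttcatctgttcggtctgacgcttatctc
Bcas1 at chr2:170173478-170173537 (mm9, minus strand): ctccatctactgtccagacccacactgtgt

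Other genes of this stage did not share the size of that difference. Gpr17, a receptor that marks the committed stage and slows maturation, had log2 levels of 2.19, 2.44 and 2.49 in transgenic samples, against 2.40, 2.45 and 2.33 in wild-type samples. The groups overlap, and the difference was -0.02 ± 0.11 (interval -0.28 to 0.25). Enpp6, a choline phosphodiesterase that marks newly forming oligodendrocytes, had -1.09, -1.11 and -1.08 in transgenic samples, against -1.36, -1.08 and -1.10 in wild-type samples. Apart from wild-type replicate 1 the 5 values nearly coincide, with a difference of 0.08 ± 0.10, or -0.01 within slide 2. The 2 other Enpp6 probes gave 0.21 ± 0.18 and 0.22 ± 0.18, the second with 0.05 within slide 2. With normexp these 2 probes gave -0.09 and 0.003.

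The rest of this group are genes of signalling, calcium release and membrane traffic. Fyn, a Src family kinase that acts in the outgrowth of oligodendrocyte processes, differed by 0.08 ± 0.08 and Itpr2, an intracellular calcium release channel, by -0.01 ± 0.08. The other tested Itpr2 probes gave 0.28 ± 0.13, with groups that do not overlap, and 0.29 ± 0.15. With normexp they gave -0.005 and -0.03. Tmem2, now Cemip2, a cell surface protein linked to hyaluronan breakdown, differed by -0.03 ± 0.13. Cnksr3, a scaffold of kinase signalling, differed by 0.06 ± 0.11 on its only probe, whose mm9 strand is opposite to the gene's strand on GRCm38.p6. Rras2, a Ras-related GTPase, differed by -0.20 ± 0.13. Within slide 2 the differences were -0.10 for Rras2, 0.12 for Fyn, 0.06 for Tmem2 and 0.03 for Itpr2. Epn2, an epsin of endocytosis, had levels of 4.56, 4.45 and 4.54 in transgenic samples, against 4.65, 4.58 and 4.57 in wild-type samples. Its groups do not overlap although its difference was -0.09 ± 0.08. Marcks, a substrate of protein kinase C, differed by 0.21 ± 0.19, and by 0.01 within slide 2, since wild-type replicate 1 at 2.89 lay well under 3.57 and 3.42 of the other wild-type samples. A second Marcks probe gave -0.03 ± 0.11.

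Probes of 1 gene did not always give the same difference. Of the 22 members with several tested probes, 11 had all their probes on the same side of 0 and 11 did not. No member probe passed limma with adjustment over all 38463 probes, which 0.0286% of all probes did. At an unadjusted p under 0.05 there were 6 of 63 member probes (9.52%), 3 with positive and 3 with negative differences, against 5.59% of all probes (2.99% higher and 2.6% lower). Both Bcas1 probes and the C1ql1 probe are among these, and the other 3 each read a gene whose brightest probe had a difference under 0.25 in size. Groups that do not overlap were found for 8 of 63 member probes (12.7%), against 13.9% of all probes. Both counts include a Cspg4 probe that passed the filter only through the wild-type arrays, where it is higher.

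Matn4 is one such gene, and both of its probes were well above background on the 6 arrays. A probe near the start of the transcript had levels of -3.90, -3.29 and -3.75 in transgenic samples, against -4.44, -4.15 and -4.48 in wild-type samples. These groups do not overlap (0.71 ± 0.19, unadjusted p = 0.00907, limma adjusted p = 0.638). The other probe, towards the end of the transcript, gave -0.04 ± 0.15. With normexp the first became 0.10 and the second -0.06.
Matn4 near the transcript start, at chr2:164227377-164227435 (mm9, minus strand): atccttccaagcaccatgagaggcccctgc

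The other pair of probes with negative differences belong to Cspg4 and Ptprz1 and are annotated to cDNA clones. For Cspg4 the probe of clone AK052394 gave -0.55 ± 0.17 (unadjusted p = 0.0190), was well above background on 1 transgenic and 3 wild-type arrays, and became -0.27 with normexp. The remaining Cspg4 probe, well above background on 3 transgenic and 2 wild-type arrays, gave 0.59 ± 0.54 over all arrays and -0.06 within slide 2. For Ptprz1 the probe of clone AK140648 had levels of -3.49, -3.03 and -3.50 in transgenic samples, against -3.02, -2.86 and -2.72 in wild-type samples. The groups do not overlap (-0.47 ± 0.16, unadjusted p = 0.0273), and the difference was -0.33 with normexp. The other Ptprz1 probes gave -0.12 ± 0.11 and 0.06 ± 0.10.
Cspg4, clone AK052394, at chr9:56739208-56739267 (mm9, plus strand): ggttttccctcatgtctcaggcccaaaata
Cspg4, gene probe, at chr9:56746627-56746686 (mm9, plus strand): ctgacccagaactattgcagttttgccgga
Ptprz1, clone AK140648, at chr6:23000686-23000745 (mm9, plus strand): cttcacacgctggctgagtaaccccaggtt
Ptprz1, gene probe, at chr6:23002114-23002173 (mm9, plus strand): gaagaaagggtgtaggacatccctcatcca

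**Figure D3:**
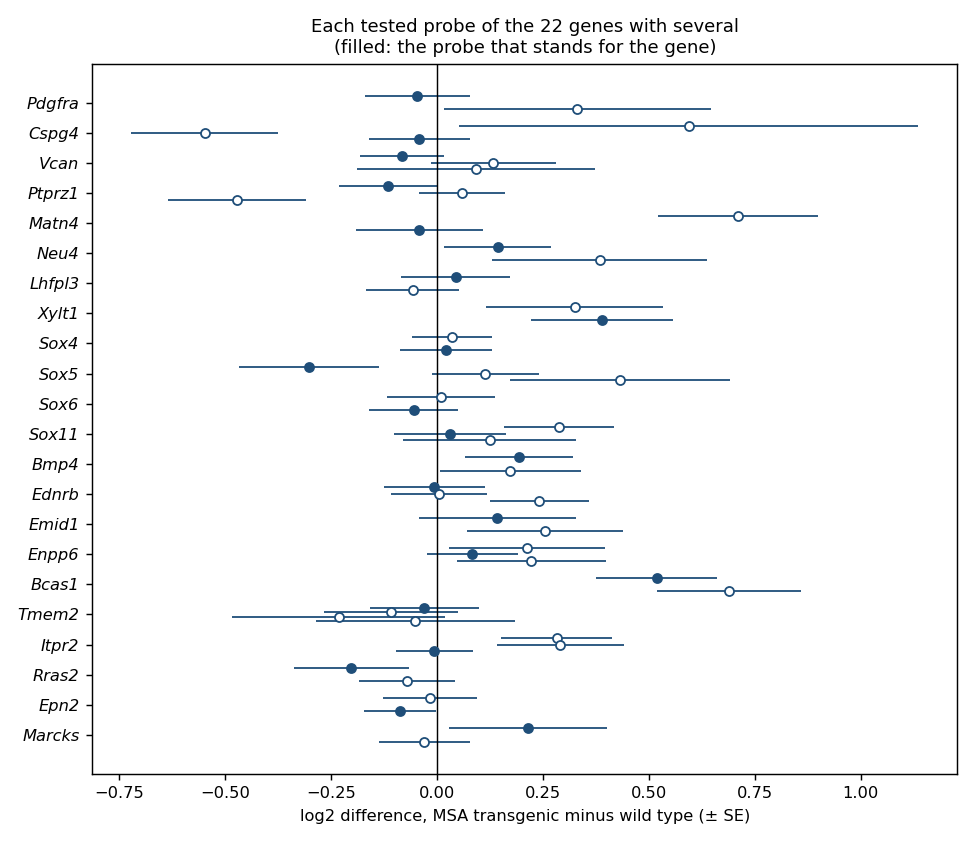
Log2 difference (MSA transgenic minus wild type, ± SE, n = 3 per genotype) of every tested probe of the 22 members that have several, with the probe that stands for the gene filled. Both Bcas1 probes lie above 0.5, while the probes of Matn4, Cspg4, Ptprz1 and Sox5 spread to either side of 0 or away from the filled probe.

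Lists of related genes were read beside the members. Of 16 transcription factors of the lineage that are not members, 0 passed over all genes, 6 had positive and 10 negative differences, and the median was -0.05. An unadjusted p under 0.05 was reached by 3 of them, against 5.86% of all genes, and all 3 had positive differences and groups that do not overlap. Nkx2-2, which acts in precursors and early differentiation, also had groups that do not overlap, with a negative difference (-0.38 ± 0.21). Over all genes 7.39% did not overlap with positive and 7.5% with negative differences. Tcf7l2, a Wnt pathway factor switched on in premyelinating cells, had levels of 1.54, 1.53 and 2.04 in transgenic samples, against 1.03, 1.06 and 1.25 in wild-type samples (0.59 ± 0.17, limma adjusted p = 0.651). Myrf, which drives myelin genes, had -0.42, -0.23 and -0.52 in transgenic samples, against -0.98, -0.64 and -0.71 in wild-type samples (0.39 ± 0.13, limma adjusted p = 0.783). Olig2, needed throughout the lineage, differed by 0.54 ± 0.18 (adjusted p = 0.783). Within slide 2 these differences were 0.54 for Tcf7l2, 0.28 for Myrf and 0.38 for Olig2, and Hes5, a Notch target, had -0.44 ± 0.20 over all arrays.

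Genes of the signals that act on precursors passed in neither direction. Of 22 genes of PDGF, BMP and Notch signalling, 9 had positive and 13 negative differences, with a median of -0.04. Those with the smallest p were the ligand genes Pdgfc (-0.23 ± 0.10) and Bmp2 (-0.34 ± 0.16), the BMP signal transducer Smad1 (-0.22 ± 0.11) and the Notch ligand gene Dll1 (0.30 ± 0.18). Within slide 2 Smad1 had -0.14 and Dll1 had 0.48 (unadjusted p = 0.009998, limma adjusted p = 0.408). Of 12 other genes of the perineuronal and precursor matrix, 8 had positive and 4 negative differences, with a median of 0.09 and 0 calls. They were led by the glypican gene Gpc5 (0.23 ± 0.11), and Ncan, which encodes neurocan, differed by 0.17 ± 0.15, or 0.29 within slide 2. Hapln2, a link protein gene of the nodes of Ranvier, differed by -0.18 ± 0.10, and Cspg5, which encodes neuroglycan C, by 0.10 ± 0.08. The lists share genes. Hapln2 is counted again among mature oligodendrocytes and myelin below, and Pdgfrb is in both the signalling list and that of fibroblasts, meninges and pericytes.

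Markers of the other cells in the dissection give the setting of these values. Of 22 genes of mature oligodendrocytes and myelin, 20 had negative differences, with a median of -0.31, and 1 of them, Klk6, passed over all genes. Their summed linear level was 599 to 617 times the arrays' 75th percentile in transgenic samples, against 644 to 786 in wild-type samples, so these do not overlap. Car2, the carbonic anhydrase of oligodendrocytes, differed by -0.64 ± 0.08 (adjusted p = 0.119) and Mog by -0.42 ± 0.09 (adjusted p = 0.366). The positive differences were those of Apod, a lipid-binding apolipoprotein gene (0.34 ± 0.10, adjusted p = 0.654, groups not overlapping), and Mobp (0.07 ± 0.15). All 12 microglial markers had positive differences (median 0.67, 0 calls), with a summed level of 46.0 to 52.2 in transgenic samples, against 32.8 to 33.8 in wild-type samples. The 12 neuronal markers summed to 474 to 488 in transgenic samples, against 531 to 557 in wild-type samples. The brightest genes weigh most in such a sum. The median difference of the neuronal list was -0.07, and 1 of its 12 genes had an unadjusted limma p under 0.05. The part of any of these shifts in the values of the members was not tested.

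The remaining marker lists had medians nearer 0 and 0 calls each. The median difference was -0.03 for astrocytes and Bergmann glia, -0.07 for neurons, 0.01 for fibroblasts, meninges and pericytes, -0.03 for endothelium and -0.003 for choroid plexus and ependyma. Gfap, the intermediate filament gene of astrocytes, had 0.59 ± 0.11 (unadjusted p = 0.00172, limma adjusted p = 0.277), with every transgenic sample above every wild-type sample. Of 12 proliferation genes, 8 had positive differences, with a median of 0.145, or -0.03 with normexp. Ube2c had 0.50 ± 0.10, Mki67 had 0.56 ± 0.21 and Top2a had -0.82 ± 0.30, and with normexp these were 0.05, 0.13 and -0.38.

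**Figure D4:**
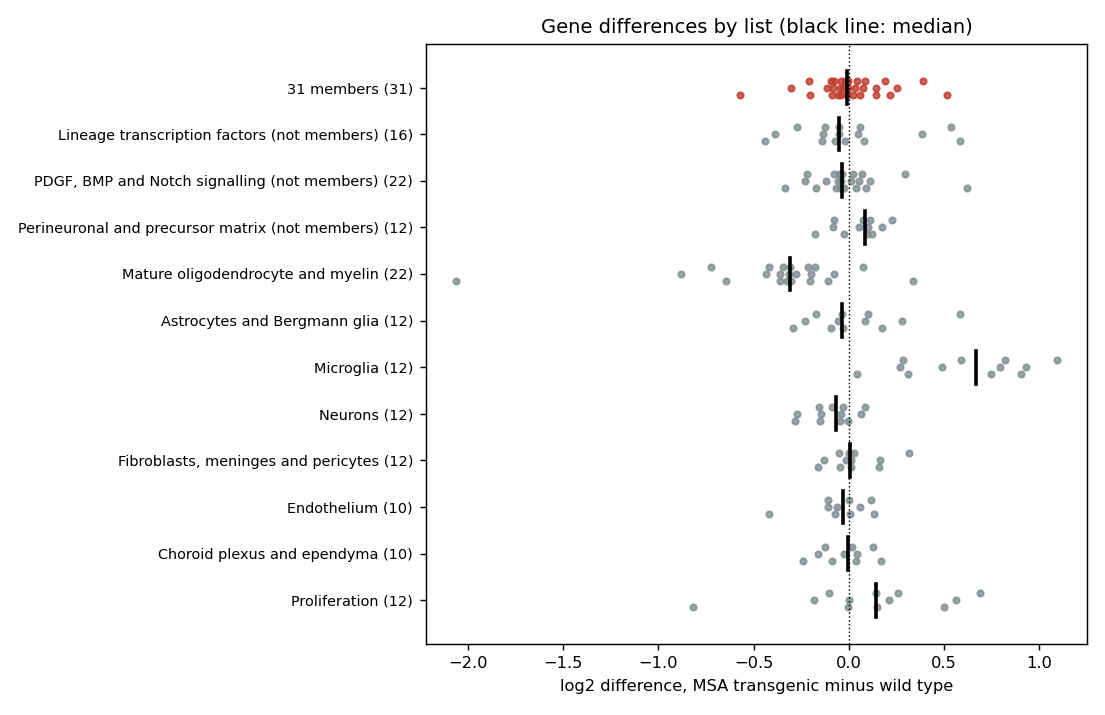
Log2 difference (MSA transgenic minus wild type) of each gene in the 31 members and in 11 related and marker lists, with the number of genes in brackets and the median as a black line. The members centre on -0.01 with Bcas1 and C1ql1 at the ends, the myelin list lies mostly below 0 and the microglial list above it.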

How the data were processed

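Per the file headers, Feature Extraction 10.7.1.1 made the spot values and probes are placed on mm9; the submitters' processing notes give version 9.5.1.1. The deposited scanner files hold each spot's intensity, linear and corrected for background per the file headers. The authors' deposited value table holds intensity too, and at least 99.93% of each column equalled a linear quantile normalization of the scanner signals within 0.01 log2. It served as an alternative.

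Controls and spots flagged as outliers (39 to 84 an array) were dropped, none was saturated, and a probe's spots were averaged. The log2 signal was scaled to each array's 75th percentile. A probe was tested if every array of either genotype read it well above background, and the brightest tested probe stood for a gene. RefSeq (GRCm38.p6) named probes by accession (32994), symbol (10224) or synonym (520), and 12867 kept their name. Genotypes were compared with limma 3.58.1 (R 4.3.3), in separate fits for genes and for probes, checked on simulated data.

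Members, lists and tests were chosen with earlier results of these data known. All members are named, with up to 4 genes per related list by smallest p. Nkx2-2, the marker genes named (Apod, Car2, Gfap, Klk6, Mki67, Mobp, Mog, Top2a, Ube2c), the probes printed, the GGA count and the strand comparison were chosen after values were seen. Alternatives covered background correction, scaling, the filter, the authors' table, slide, the variance model, the probe rule and leaving out each sample. Arrays give no counts, and their number limits the precision. The sequence of 1 Matn4 probe is not reported here.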

Additional observations from a re-analysis of the deposited data

How the results depend on the processing

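No member gene passed limma under any alternative, planned or added. The lowest adjusted p of a member was 0.313, for Bcas1, whose log2 difference ranged from 0.40 (without transgenic replicate 3) to 0.64. That of C1ql1 ranged from -0.74 to -0.38. Over 17 alternatives 13 members kept their sign, and 18 members, none called in any, changed it in at least 1. These alternatives are not independent. A trend in the variance model leaves every difference unchanged, and both changes of the filter kept each member's probe. Slide as a block gave the same differences as leaving out wild-type replicate 1, and the authors' table nearly repeats the quantile normalization. With normexp, Neu4 -0.0195, Sox11 -0.034, Ednrb 0.00258, Dscam 0.00549 and Itpr2 0.0115 changed sign. With quantile normalization, Ednrb 0.00346, Dscam 0.0178, Gpr17 0.0145 and Itpr2 0.0124 changed sign. With median centring, Lhfpl3 -0.000408, Sox4 -0.0231 and Sox11 -0.0138 changed sign. With the authors' value table, Ednrb 0.00343, Dscam 0.018, Gpr17 0.0146 and Itpr2 0.0123 changed sign. With slide as a block, Pdgfra 0.0383, Sox6 0.0224, Dscam 0.0764, Enpp6 -0.00552, Tmem2 0.0592 and Itpr2 0.0259 changed sign. With array weights, Lhfpl3 -0.0400, Sox6 0.00446, Dscam 0.0627, Enpp6 -0.00137, Tmem2 0.0773 and Itpr2 0.0241 changed sign. With probes averaged per gene, Pdgfra 0.143, Cspg4 0.00171, Vcan 0.0474, Matn4 0.334, Lhfpl3 -0.00655, Sox5 0.0814, Ednrb 0.0802 and Itpr2 0.189 changed sign. With the Sox5 repeat probe left out, Sox5 0.114 changed sign. Leaving out 1 sample at a time did so for Pdgfra -0.128 to 0.0383, Cspg4 -0.14 to 0.0255, Matn4 -0.138 to 0.0756, Lhfpl3 -0.023 to 0.152, Sox4 -0.0589 to 0.0657, Sox6 -0.108 to 0.0224, Sox11 -0.0534 to 0.129, Ednrb -0.0872 to 0.0833, Dscam -0.0659 to 0.0764, Emid1 -0.0284 to 0.284, Gpr17 -0.0747 to 0.0719, Enpp6 -0.00552 to 0.134, Tmem2 -0.119 to 0.0592, Itpr2 -0.0559 to 0.0259 and Cnksr3 -0.0121 to 0.124. The median over members, -0.01, became -0.0537 on centring by the median (all genes -0.0448), 0.0596 on averaging probes and 0.0352 over single probes. The 11 genes called on the array became 29 with normexp, 27 with a trend of variance on intensity, 95 with array weights and 24 on averaging probes. They became 23 under the all-array filter, which tests fewer genes, 6 with no filter, which tests more, and 7 with slide as a block, which is also the count without wild-type replicate 1. Leaving out 1 sample gave 0 to 7, the 0 without transgenic replicate 2 (limma, 1193 genes at an unadjusted p under 0.05), and 1 without transgenic replicate 1 or wild-type replicate 3. Where not stated, the cause was not tested. No paired analysis was run. The sample titles carry a different number for each sample, and transgenic and wild-type samples of the same replicate have adjacent title numbers. No label says that such samples belong together, so a pairing was not tested. Dim probes limit precision. With normexp, which adds an offset of 50 units, differences of dim member probes shrank, changed sign or grew, and the median over all genes became -0.0473. The part of the offset in this was not tested.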
